A study of Sus scrofa with 24 samples.

Results

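The pig microRNAs (miRNAs) miR-23, miR-27 and miR-24 are cut from hairpins that lie close together in a pair of paralogous clusters, miR-23a/27a/24-1 and miR-23b/27b/24-2. Their entries were taken by name from the deposited miRNA table (ssc-miR-23a, ssc-miR-23b, ssc-miR-24, ssc-miR-27a or ssc-miR-27b with any number or arm suffix), which gave 8 members of 1587 entries: ssc-miR-23a, ssc-miR-23b, ssc-miR-24-1-5p, ssc-miR-24-2-5p, ssc-miR-24-3p, ssc-miR-27a, ssc-miR-27b-3p and ssc-miR-27b-5p. Small RNA was sequenced from cultured subcutaneous adipocytes (BF, from the back fat) and intramuscular adipocytes (IMF, from the longissimus dorsi muscle) of 6-day-old Yorkshire piglets before induction (day 0) and on days 2, 4 and 8 after it, with 3 libraries in each of the 8 groups, named BF-0d to BF-8d and IMF-0d to IMF-8d. Preadipocytes were released by collagenase, which the study used at a higher concentration and for longer on muscle than on back fat. The isolation thus differed with the source. After it, all cultures were grown close to confluence in serum-containing medium, induced with 3-isobutyl-1-methylxanthine, dexamethasone and insulin, held in insulin alone and then returned to growth medium. The cells came from 3 piglets by the study's methods, and neither the labels nor the methods tie a library to a piglet, so the p-values measure the spread between these libraries, which may be technical. They are mixed primary cultures, not sorted adipocytes, and fewer cells of a type and less miRNA per cell cannot be told apart in them.

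A miRNA guides the silencing complex to messenger RNAs that pair with its seed, bases 2 to 8 from its 5′ end, and so lowers their stability and translation. miR-27a and miR-27b are known to restrain adipogenesis, in part by repressing PPARG, the nuclear receptor that drives fat cell differentiation. miR-23a and miR-23b are known to repress glutaminase, and miR-24 to repress cell cycle genes such as E2F2 and MYC.

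The mature sequences are shown because they decide which members can share targets and which reads can be told apart. They were copied from the study's supplementary list, with U for T, and the seed is in capitals.
ssc-miR-23a: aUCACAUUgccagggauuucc
ssc-miR-23b: aUCACAUUgccagggauuacca
ssc-miR-27a: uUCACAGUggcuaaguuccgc
ssc-miR-27b-3p: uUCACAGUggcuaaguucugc
ssc-miR-24-3p: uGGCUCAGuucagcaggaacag
ssc-miR-24-1-5p: gUGCCUACugagcugaaacacagu
ssc-miR-24-2-5p: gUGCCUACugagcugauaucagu
ssc-miR-27b-5p: aGAGCUUAgcugauuggugaaca
ssc-miR-23a and ssc-miR-23b shared their seed and their first 18 bases and differed by the substitution U19A, counted from the 5′ end of miR-23a, and by 1 more base at the end of miR-23b. ssc-miR-27a and ssc-miR-27b-3p likewise shared the first 18 bases and differed by C19U. The paralogs therefore offer the same seed to targets, and only reads that reach base 19 separate them. How the authors assigned shorter reads is not given in the sources used here. No other of the 958 entries with a listed mature sequence had the seed of a member.

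The a cluster lay on chromosome 2 of Sscrofa11.1, plus strand, within 408 bases and between annotated protein-coding genes. RefSeq placed the hairpins at chr2:65308117-65308186 (ssc-mir-23a), chr2:65308294-65308375 (ssc-mir-27a) and chr2:65308453-65308524 (ssc-mir-24-1), and the nearest protein-coding gene, ZSWIM4, lay 2673 bases beyond them. The b cluster lay on the minus strand of chromosome 10 within 860 bases, at chr10:27080197-27080276 (ssc-mir-23b), chr10:27079963-27080042 (ssc-mir-27b) and chr10:27079417-27079496 (ssc-mir-24-2). All 3 of its hairpins were in 1 intron of C10H9orf3 (chr10:27078115-27472347), on the same strand as the gene. The study's list gave these hairpins on the plus strand.

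The hairpins of the miR-24 loci are printed with the mature arms in capitals, since they show why the 5p entries report a locus and the 3p entry does not.
ssc-mir-24-1: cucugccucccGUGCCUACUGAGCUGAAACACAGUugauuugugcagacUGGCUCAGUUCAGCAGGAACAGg
ssc-mir-24-2: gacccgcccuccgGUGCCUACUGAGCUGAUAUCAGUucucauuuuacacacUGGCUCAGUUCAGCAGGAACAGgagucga
The 3p arm was the same in both and had 2 exact copies in the genome, so ssc-miR-24-3p cannot be assigned to a cluster. The 5p arms shared their first 16 bases and then differed, and each had 1 exact copy, as had the other members.

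The depth ranged from 4954845 to 16863560 reads on miRNAs per library, with a median of 10614384. Values are given in what the authors call TPM, which here are reads per 1000000 reads on miRNAs, so each is a share of its library. ssc-miR-21-5p took the largest share, and it fell with time: its group means were 57.2%, 55.8%, 51.8% and 35.5% of reads in BF on days 0, 2, 4 and 8, and 57.4%, 53.1%, 54.3% and 42.5% in IMF. Median-of-ratios scaling, which sets libraries level by their typical entry rather than by their total, moved the median log2 fold change of the tested entries by -0.15 in BF-0d vs. BF-8d, by -0.15 in IMF-4d vs. IMF-8d, by 0.13 in IMF-2d vs. IMF-4d, and by 0.12, 0.13, 0.34 and 0.25 in BF vs. IMF on days 0, 2, 4 and 8, so values under it are given for the members called and where it turns the direction of a printed value. The 6 mesenchymal marker miRNAs, miR-21-5p among them, summed to 367081 to 684525 TPM. Of 8 skeletal muscle markers, 7 were listed and summed to 475 to 2362 TPM, almost all of it ssc-miR-1. ssc-miR-133a-3p held 7.53 to 30.2 TPM and ssc-miR-499-5p 8.57 to 23.2 TPM. ssc-miR-133a-5p reached at most 1.41 TPM, and ssc-miR-133b, ssc-miR-206 and ssc-miR-499-3p stayed under 1 TPM in every library. The 7 blood and immune cell markers summed to 0.662 to 8.08 TPM and the 2 endothelial markers to 18.2 to 90.9 TPM.

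The 8 members together held 0.827% to 2.13% of a library, and ssc-miR-27b-3p alone made up 64.0% to 79.2% of their sum. It ranked 10 among all entries by mean TPM. ssc-miR-23a ranked 35, ssc-miR-24-3p 40, ssc-miR-27a 50, ssc-miR-23b 54 and ssc-miR-24-1-5p 77, while the passenger arms ssc-miR-27b-5p and ssc-miR-24-2-5p ranked 205 and 267. Every member passed the filter of a mean of at least 1 TPM, so all 8 were among the 430 entries tested. The shares were highest in BF-0d, at 2.01% ± 0.140 (SD, n = 3), against 0.990% ± 0.0694 (n = 3) in IMF-0d.

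**Figure D1:**
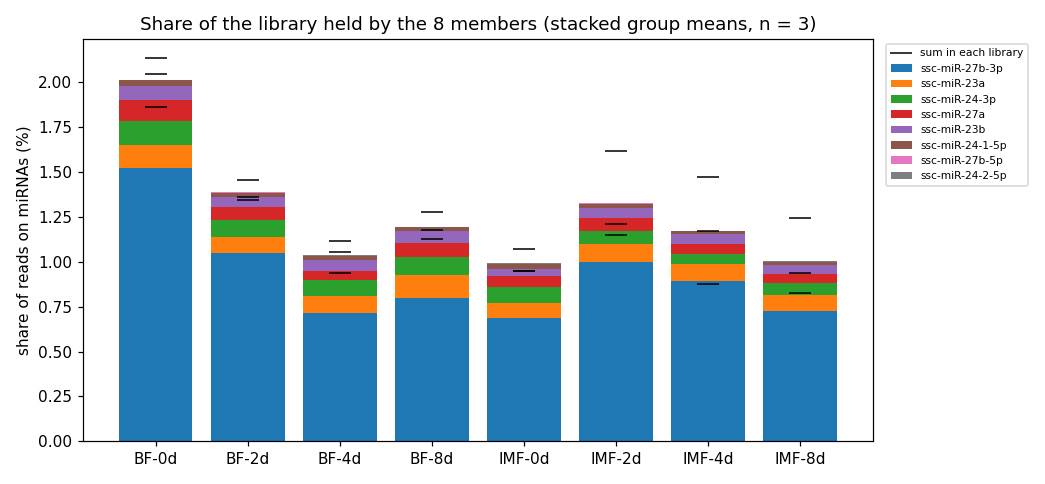
Share of the reads on miRNAs held by the 8 members in each group, as stacked group means (3 libraries each) in percent, with a black dash for the sum in each library. The blue ssc-miR-27b-3p segment makes up most of every bar, and the 3 BF-0d libraries, at 1.86% to 2.13%, lie above all others.

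ssc-miR-27b-3p, the mature strand of the b cluster with the PPARG-repressing seed, was the member with the largest limma log2 fold change between the sources on day 0. In BF-0d its libraries held 15552, 14497 and 15651 TPM, in BF-2d 9721, 10905 and 10765 TPM, in BF-4d 7990.1, 6364 and 7059 TPM, and in BF-8d 8495, 8170.5 and 7237 TPM. All BF-0d libraries were above all later ones of BF. In IMF-0d the values were 6449, 6790.1 and 7428 TPM, in IMF-2d 8883, 8447 and 12579 TPM, in IMF-4d 8794, 6458 and 11447 TPM, and in IMF-8d 9294, 6798 and 5734 TPM. IMF thus started below every BF-0d library, all IMF-2d libraries were above all IMF-0d libraries, and the later IMF groups overlapped with both. These values rest on 35857 to 263935 reads per library.

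Ordered by group mean, ssc-miR-27b-3p was highest in BF-0d (15233 ± 640 TPM, SD, n = 3) and next in BF-2d (10464 ± 647), and the libraries of this pair did not overlap. IMF-2d (9970 ± 2270), IMF-4d (8900 ± 2496), BF-8d (7968 ± 653), IMF-8d (7275 ± 1827), BF-4d (7138 ± 816) and IMF-0d (6889 ± 497) followed, and each of these overlapped with its neighbour in the order.

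**Figure D2:**
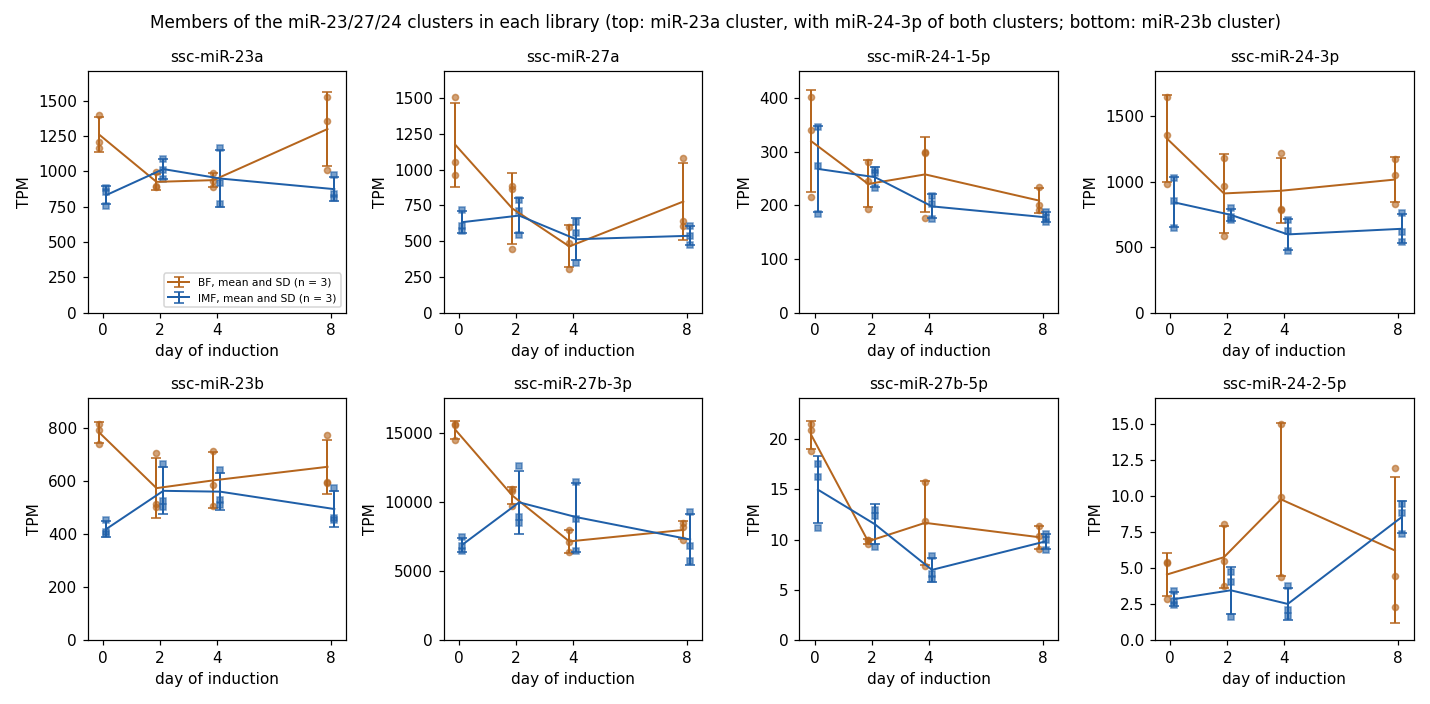
TPM of each member (y axis, from 0) against the day of induction (x axis), with brown circles for BF libraries, blue squares for IMF libraries, and lines with bars for the mean and SD of 3 libraries. ssc-miR-27b-3p starts at 15233 TPM in BF and 6889 TPM in IMF and the libraries overlap on day 2, while ssc-miR-24-2-5p in IMF stays at 2.49 to 3.44 TPM until day 4 and reaches 8.53 TPM on day 8.

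Which miRNAs change while subcutaneous adipocytes differentiate is the question of the comparisons within BF. DE-miRNAs are entries with a Benjamini-Hochberg FDR under 0.05 over the 430 tested and a fold change above 1.5, by limma on log2(TPM + 1), and a log2 fold change is the second group minus the first. In BF-0d vs. BF-8d, 3 of the 8 members fell, all of the miR-27 family, where 14.9% of all tested entries fell (20.5% under median-of-ratios scaling). ssc-miR-27b-3p fell by 0.94 ± 0.18 on the log2 scale (SE; adjusted p = 0.00051, limma), to 0.523 of its BF-0d mean. Its other arm, ssc-miR-27b-5p, fell by 0.94 ± 0.21 (adjusted p = 0.00187, limma), with 21.5, 20.9 and 18.9 TPM in BF-0d and 10.4, 9.03 and 11.3 TPM in BF-8d. The BF-8d libraries lay below the BF-0d libraries for both arms, 2 of 8 members, as for 20.9% of tested entries. The falls were larger under median-of-ratios scaling (log2 fold changes of -1.12 and -1.10). Marker miRNAs of several cell types differed between the same groups: the mesenchymal sum was 637158 to 681210 TPM in BF-0d and 367081 to 459619 TPM in BF-8d (2 of 6 lower, 1 higher), the muscle sum 819 to 1013 and 1324 to 2362 TPM (2 of 3 tested higher, 1 lower), the blood and immune sum 1.19 to 1.99 and 3.71 to 4.44 TPM (the 1 tested higher), and 1 of 2 endothelial markers was higher. Their part in the result was not tested.

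ssc-miR-27a, the a-cluster paralog with the same seed, fell by 0.62 ± 0.24 on the log2 scale (adjusted p = 0.0459, limma), and by 0.80 under median-of-ratios scaling. Its libraries held 1511, 961 and 1050.2 TPM in BF-0d and 641, 1085 and 605 TPM in BF-8d. The BF-8d library with 1085 TPM lay within the BF-0d range, and the call was lost in 7 of 13 alternatives, among them those without BF-0d replicate 1, BF-0d replicate 3, BF-8d replicate 1 or BF-8d replicate 3 (adjusted p = 0.0667 to 0.206, limma) and that with no filter on low values (0.324).

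ssc-miR-23a, ssc-miR-23b and the miR-24 entries were not DE-miRNAs in BF-0d vs. BF-8d. ssc-miR-23a had 1400.3, 1168 and 1208 TPM in BF-0d and 1012, 1529 and 1359 TPM in BF-8d, a log2 fold change of 0.03 ± 0.20 (adjusted p = 0.916, limma) that turned to -0.15 under median-of-ratios scaling. The BF-0d range lay within the wider BF-8d range. ssc-miR-24-1-5p stood at -0.57 ± 0.23 on the log2 scale (adjusted p = 0.0496, limma), just inside the FDR and just under the fold change limit, and was called under median-of-ratios scaling (-0.75, adjusted p = 0.00677), in edgeR and in DESeq2.

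Both miR-27b arms had lower means in BF-2d than in BF-0d. In BF-0d vs. BF-2d, 1 of 8 members fell, where 1.40% of tested entries did: ssc-miR-27b-5p had 9.53, 9.93 and 9.997 TPM in BF-2d, a log2 fold change of -0.98 ± 0.14 (adjusted p = 0.0217, limma), or -0.97 under median-of-ratios scaling. All its libraries lay below those of BF-0d, as did those of 4 more members (5 of 8, beside 16.7% of tested entries), but the call was lost without any of the 3 BF-0d libraries or without BF-2d replicate 1 or 2 (adjusted p = 0.0545 to 0.112, limma). With the replicate number as a block its adjusted p was 0.0544 (limma), where 0 of 430 entries were called, and without BF-2d replicate 3 the count was 2, with ssc-miR-23b, where 9.77% of entries were called. The muscle markers summed to 819 to 1013 TPM in BF-0d and 475 to 544 TPM in BF-2d (1 of 3 tested lower), and their part was not tested. ssc-miR-27b-3p passed the FDR at -0.54 ± 0.09 (adjusted p = 0.0281, limma) with a fold change under 1.5. Under median-of-ratios scaling it did not pass the FDR (-0.53, adjusted p = 0.0794, limma), and it was called in 0 of 13 alternatives. No member was called in BF-2d vs. BF-4d (6.05% of tested entries) or in BF-4d vs. BF-8d (3.02%), where 1 of 8 members in each had an unadjusted p under 0.05 in limma, beside 117 and 99 of the 430 entries. The count in BF-2d vs. BF-4d was 1 in DESeq2, for ssc-miR-27b-3p, and 2 without BF-4d replicate 1, for ssc-miR-24-2-5p and ssc-miR-27b-3p, settings that called 12.6% and 18.1% of all entries.

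**Figure D3:**
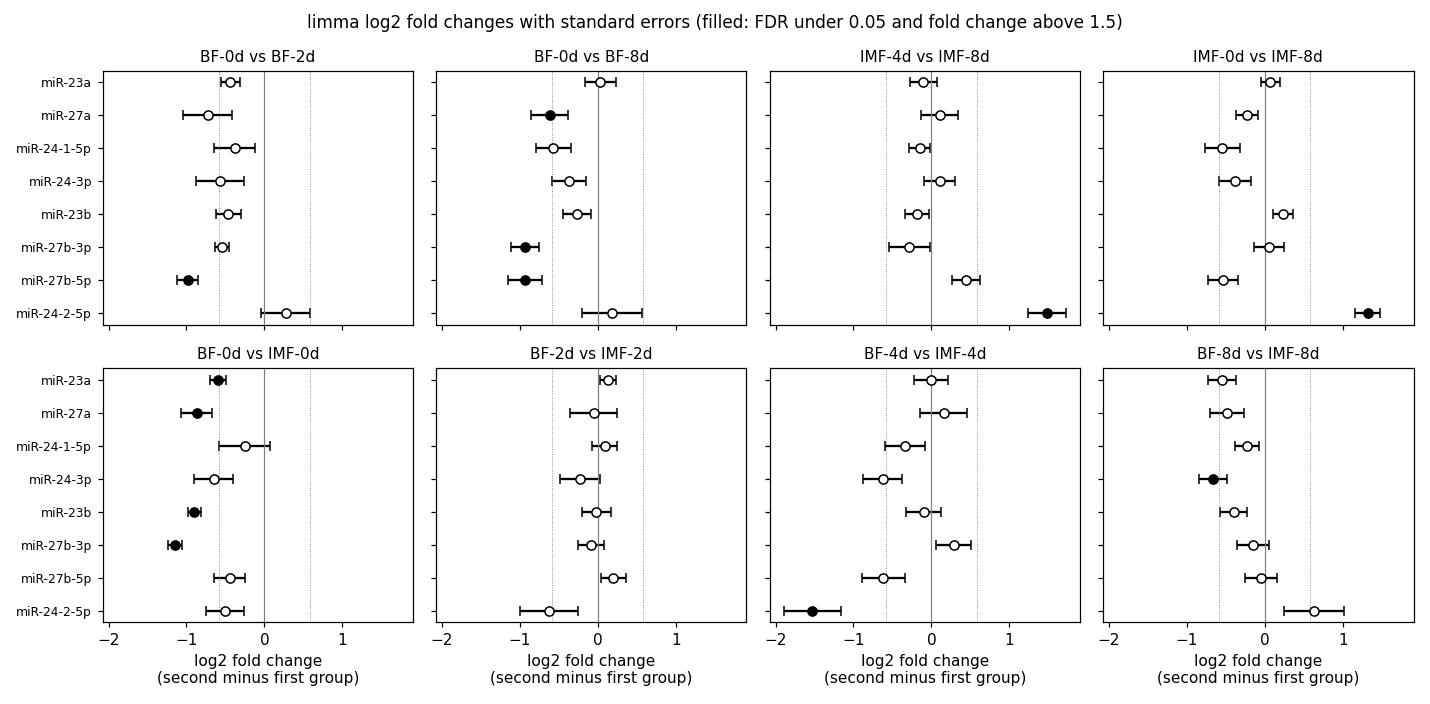
limma log2 fold changes of the 8 members (x axis, second group minus first) with standard errors, in 4 comparisons within BF or IMF and the 4 of BF vs. IMF. Filled points passed FDR 0.05 and a fold change of 1.5 (dotted lines), and they fall on ssc-miR-27b-5p in BF-0d vs. BF-2d, on the miR-27 entries in BF-0d vs. BF-8d, on ssc-miR-24-2-5p in both IMF comparisons and in BF-4d vs. IMF-4d, on 4 members in BF-0d vs. IMF-0d, on none in BF-2d vs. IMF-2d and on ssc-miR-24-3p in BF-8d vs. IMF-8d.

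Within IMF the only member called was ssc-miR-24-2-5p, the 5p arm of the b-cluster miR-24 hairpin. It had 3.38, 2.41 and 2.70 TPM in IMF-0d, 4.69, 1.61 and 4.03 TPM in IMF-2d, 3.73, 1.67 and 2.08 TPM in IMF-4d, and 7.32, 9.42 and 8.84 TPM in IMF-8d. Every IMF-8d library was above every earlier IMF library. Of all tested entries, 30.5% had every IMF-8d library above every IMF-4d library, with 2 of 8 members, and 30.9% above every IMF-0d library, with 1 of 8. These are low levels, from 14 to 167 reads per library over all groups, so counting error adds to the spread between libraries. It rose by 1.48 ± 0.24 on the log2 scale in IMF-4d vs. IMF-8d (adjusted p = 0.00749, limma), as 1 of 8 members where 12.3% of tested entries rose (8.60% under median-of-ratios scaling). It rose by 1.32 ± 0.16 in IMF-0d vs. IMF-8d (adjusted p = 0.00226, limma), as 1 of 8 where 19.8% rose. The rise was nearly as large under median-of-ratios scaling (1.36 and 1.31). With no filter on low values the call in IMF-4d vs. IMF-8d was lost (adjusted p = 0.0643, limma), where 1.64% of 1587 entries rose, and that in IMF-0d vs. IMF-8d was kept. The sum of the blood and immune markers was also higher in the same libraries, at 0.662 to 1.87 TPM in the earlier IMF libraries and 6.68 to 8.08 TPM in IMF-8d. Only 1 of the 7, ssc-miR-486, was abundant enough to be tested, and it was called higher, while 3 were at 0 in all IMF-8d libraries. Of 3 muscle markers tested, 1 was higher in each of the 2 comparisons, and in IMF-0d vs. IMF-8d 2 of 6 mesenchymal markers were higher, while the mesenchymal sum was 633233 to 684525 TPM in IMF-0d and 490210 to 529420 TPM in IMF-8d. Their part in the result was not tested.

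The a-cluster arm did not share this course. ssc-miR-24-1-5p had 274, 184 and 345 TPM in IMF-0d and 187, 177 and 169 TPM in IMF-8d, a log2 fold change of -0.54 ± 0.23 (adjusted p = 0.104, limma), and in edgeR, in DESeq2 and without IMF-0d replicate 2 it was called lower, as was ssc-miR-27b-5p. The other members had log2 fold changes of -0.54 to 0.23 in this comparison. ssc-miR-27b-3p was at 0.05 ± 0.19 (adjusted p = 0.859, limma), next to its fall in BF. No member was called in IMF-0d vs. IMF-2d or in IMF-2d vs. IMF-4d, where limma called 0% of all tested entries. edgeR called 7 and 1 entries and DESeq2 9 and 2, with no member among them. At an unadjusted p under 0.05 in limma there were 68 entries with 3 members in the first and 65 with 2 members in the second. In IMF-0d vs. IMF-2d, ssc-miR-27b-3p had a log2 fold change of 0.51 ± 0.17, ssc-miR-23b of 0.42 ± 0.13 and ssc-miR-23a of 0.29 ± 0.09. For these 3 of 8 members the IMF-2d libraries lay above the IMF-0d libraries, as for 9.07% of tested entries.

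Whether subcutaneous and intramuscular cells differ was compared on each day. In BF-0d vs. IMF-0d, 4 of 8 members were lower in IMF, where 15.8% of tested entries were lower (8.84% under median-of-ratios scaling, with 3 members): both miR-23 paralogs and both miR-27 paralogs. ssc-miR-27b-3p stood at -1.15 ± 0.09 on the log2 scale (adjusted p = 0.00092, limma), or 0.452 of the BF-0d mean, and at -0.98 under median-of-ratios scaling. ssc-miR-23b had 791, 737 and 814 TPM in BF-0d and 452, 398 and 405 TPM in IMF-0d, a log2 fold change of -0.90 ± 0.08 (adjusted p = 0.0015, limma), or -0.74 under median-of-ratios scaling. Both kept their call in all 13 alternatives.

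ssc-miR-23a had 856, 883 and 758 TPM in IMF-0d, a log2 fold change of -0.59 ± 0.11 (adjusted p = 0.0106, limma), which stood at -0.43, under the fold change limit, with median-of-ratios scaling. It was also lost in edgeR (-0.35, adjusted p = 0.145) and DESeq2 (-0.39, adjusted p = 0.0645), and without BF-0d replicate 1 or IMF-0d replicate 3, where the fold change stood under 1.5. ssc-miR-27a had 606, 573 and 719 TPM in IMF-0d, a log2 fold change of -0.87 ± 0.20 (adjusted p = 0.0222, limma) or -0.71 under median-of-ratios scaling, and lost its call without BF-0d replicate 3, IMF-0d replicate 1 or IMF-0d replicate 2 (adjusted p = 0.0559 to 0.0691) and with no filter on low values (adjusted p = 0.103, limma). The IMF-0d libraries lay below the BF-0d libraries for these 4 and for ssc-miR-27b-5p, which was not called (-0.45 ± 0.20, adjusted p = 0.149, limma), so for 5 of 8 members beside 29.5% of tested entries. The endothelial markers summed to 38.1 to 71.2 TPM in BF-0d and 18.2 to 40.4 TPM in IMF-0d with neither called, and 2 of 6 mesenchymal markers were lower in IMF-0d. Of 3 muscle markers tested, 1 was higher and 1 lower. Their part in the result was not tested. ssc-miR-24-3p, with 1648, 984 and 1354 TPM in BF-0d and 849.8, 649 and 1028 TPM in IMF-0d, overlapped between the groups, at -0.65 ± 0.25 (adjusted p = 0.107, limma). With the replicate number as a block it passed (adjusted p = 0.0325, limma), which made 5 members called, where 16.7% of all entries were lower.

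In BF-2d vs. IMF-2d no member was called, where 12.3% of tested entries were. No member had an unadjusted p under 0.05 in limma, beside 125 of the 430 entries, and edgeR and DESeq2 called no member where they called 15.8% and 15.1% of entries. In BF-4d vs. IMF-4d only ssc-miR-24-2-5p was called, 1 of 8 lower in IMF where 28.8% of tested entries were (15.8% under median-of-ratios scaling). It had 4.33, 9.94 and 15.0 TPM in BF-4d, each above the highest IMF-4d library (2 of 8 members and 41.2% of tested entries lay apart in this way), and a log2 fold change of -1.53 ± 0.37 (adjusted p = 0.00598, limma), or -1.19 under median-of-ratios scaling. With no filter on low values the call was lost (adjusted p = 0.182, limma), where 2.46% of 1587 entries were lower. The blood and immune markers summed to 2.81 to 6.37 TPM in BF-4d and 0.662 to 1.60 TPM in IMF-4d (the 1 tested lower), and the endothelial markers to 53.6 to 86.4 and 18.7 to 30.9 TPM (1 of 2 lower), and 1 of 6 mesenchymal markers was lower. Their part was not tested. Without BF-4d replicate 1 the count was 3, with ssc-miR-24-3p and ssc-miR-27b-5p, and with the replicate number as a block it was 2, with ssc-miR-24-3p, where 32.1% and 30.2% of all entries were lower. ssc-miR-27b-3p on day 4 depended on the scaling: its log2 fold change was 0.29 ± 0.22 (adjusted p = 0.355, limma) in TPM and 0.71 (adjusted p = 0.0237), higher in IMF, under median-of-ratios scaling. edgeR and DESeq2 called it too.

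In BF-8d vs. IMF-8d, 1 of 8 members was lower in IMF, where 25.1% of tested entries were (14.9% under median-of-ratios scaling). It was ssc-miR-24-3p, the mature strand of both miR-24 loci, with 828, 1172 and 1047 TPM in BF-8d and 761, 618 and 540.1 TPM in IMF-8d. The log2 fold change was -0.67 ± 0.18 (adjusted p = 0.0104, limma), but it was -0.34 (adjusted p = 0.0854) under median-of-ratios scaling and the call was lost in edgeR and DESeq2, with no filter on low values (adjusted p = 0.120, limma) and without BF-8d replicate 2 or IMF-8d replicate 3. The IMF-8d libraries lay below the BF-8d libraries for 4 of 8 members, beside 34.9% of tested entries. The other 3 were ssc-miR-23a, which passed the FDR with a fold change under 1.5 (-0.55 ± 0.18, adjusted p = 0.0258, limma), ssc-miR-23b (-0.40 ± 0.17, adjusted p = 0.0784) and ssc-miR-24-1-5p (-0.23 ± 0.16, adjusted p = 0.265). Under median-of-ratios scaling ssc-miR-23a stood at -0.23 and ssc-miR-23b at -0.08, while ssc-miR-24-1-5p turned to 0.09 (adjusted p = 0.234, 0.693 and 0.604, limma). The endothelial markers summed to 51.2 to 90.9 TPM in BF-8d and 24.6 to 34.8 TPM in IMF-8d (2 of 2 lower), the blood and immune markers to 3.71 to 4.44 and 6.68 to 8.08 TPM (the 1 tested higher), and the mesenchymal markers to 367081 to 459619 and 490210 to 529420 TPM (1 of 6 higher). Their part was not tested. Without BF-8d replicate 1 the count was 4, with ssc-miR-23a, ssc-miR-24-3p and ssc-miR-27a lower in IMF and ssc-miR-24-2-5p higher. There 45.1% of all entries were called, 32.3% lower and 12.8% higher. Without IMF-8d replicate 1 the count was 2, with ssc-miR-23a and ssc-miR-24-3p, where 38.4% of all entries were called. ssc-miR-24-2-5p had 11.9, 2.26 and 4.44 TPM in BF-8d, so that 1 library set the BF mean, and its log2 fold change to IMF-8d was 0.63 ± 0.38 (adjusted p = 0.205, limma). That library was BF-8d replicate 1, without which ssc-miR-24-2-5p was called.

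The courses in BF and IMF differed beyond the spread between libraries for 4 of 8 members, in a moderated F test (limma, 24 libraries, FDR 0.05) of whether the effect of day depends on the source, where 31.6% of tested entries passed: ssc-miR-27b-3p (adjusted p = 0.00132), ssc-miR-23b (0.0327), ssc-miR-24-2-5p (0.0329) and ssc-miR-23a (0.0336). Without the libraries of any 1 replicate number only ssc-miR-27b-3p always stayed called. From day 0 to day 2, ssc-miR-27b-3p changed by 1.06 ± 0.27 more on the log2 scale in IMF than in BF (adjusted p = 0.0346, limma), and from day 0 to day 8 by 0.99 ± 0.27 more (adjusted p = 0.0103, limma). For ssc-miR-24-2-5p the change from day 4 to day 8 was 2.16 ± 0.56 larger in IMF (adjusted p = 0.0119, limma). Its differences from day 0 to day 8 (1.13 ± 0.56, adjusted p = 0.158, limma) and from day 0 to day 2 (-0.13 ± 0.56, 0.968) did not pass. The same steps did not pass in TPM for ssc-miR-23a or ssc-miR-23b (adjusted p = 0.0567 to 0.928, limma).

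Ratios of 2 members in the same library do not depend on its scaling and show whether paralogs or arms moved together. Each of 5 ratios was tested for day 8 against day 0 within source, and for IMF against BF within day, by exact two-sided permutation of the log2 ratio, with adjustment over the 10 tests. Only 1 of the 10 passed. The ratio of ssc-miR-24-1-5p to ssc-miR-24-3p was higher in IMF, by a mean of 0.36 on the log2 scale over the 4 days (exact permutation p = 0.00085, adjusted p = 0.0085). It was 0.238 ± 0.0166 (SD, n = 3) in BF-0d and 0.314 ± 0.0269 in IMF-0d, 0.274 ± 0.0497 and 0.339 ± 0.0219 on day 2, 0.283 ± 0.0857 and 0.337 ± 0.0444 on day 4, and 0.209 ± 0.0335 and 0.282 ± 0.0333 on day 8. The libraries were apart on days 0 and 8 and overlapped on days 2 and 4. The adjusted exact p stayed between 0.00075 and 0.0294 when each library was left out in turn.

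The 5p arms of the miR-24 loci were far from equal. ssc-miR-24-1-5p was 16.1 to 144 times as abundant as ssc-miR-24-2-5p, 2 sequences of nearly equal length. Its geometric mean in IMF was 92.7 on day 0 and 20.9 on day 8, a log2 difference of -2.15, and in BF 71.1 and 42.2, a difference of -0.75 with a range of 16.1 to 88.5 in BF-8d. Over both sources the difference was -1.45 (exact permutation p = 0.02, adjusted p = 0.10), which missed the threshold after adjustment. Without 1 library in turn the adjusted exact p ran from 0.025 to 0.175.

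The ratios of the paralogs varied between groups without passing a test. ssc-miR-23a was 1.60 to 2.02 times ssc-miR-23b by group mean. ssc-miR-27a was 0.0583 to 0.0973 times ssc-miR-27b-3p. Neither the ratio 23a to 23b nor the ratio 27a to 27b-3p passed in either test, with mean log2 differences of 0.07 and 0.02 for day 8 against day 0 and 0.10 and -0.04 for IMF against BF (adjusted p = 0.471 to 0.960, exact permutation). The small means for day 8 against day 0 join values of opposite sign, 0.30 in BF and -0.16 in IMF for 23a to 23b, and 0.32 in BF and -0.29 in IMF for 27a to 27b-3p. On day 0 the ratio 23a to 23b ran from 1.48 to 1.77 in BF and from 1.87 to 2.22 in IMF, with no overlap. The ratio ssc-miR-27b-5p to ssc-miR-27b-3p was 0.000810 to 0.00218 by group mean and did not pass either (adjusted p = 0.20 and 0.960, exact permutation). Its IMF against BF difference on the log2 scale was 0.67 and 0.31 for the first pair of days, 0 and 2, then -0.97 for day 4, and 0.10 for day 8 (unadjusted exact permutation p = 0.10, 0.10, 0.20 and 0.70, where 0.10 is the smallest that 3 against 3 libraries can give).

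**Figure D4:**
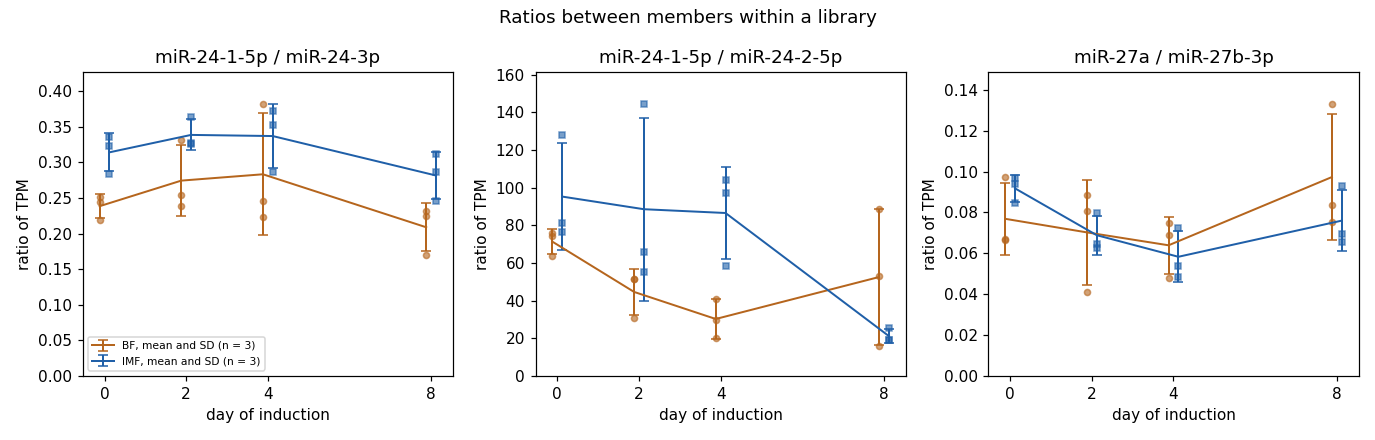
Ratios of TPM of 2 members in the same library (y axis, from 0) against the day of induction (x axis), with circles for BF, squares for IMF, and the mean and SD of 3 libraries. The ratio miR-24-1-5p to miR-24-3p has its IMF mean above its BF mean on each day (0.314 against 0.238 on day 0), and the ratio miR-24-1-5p to miR-24-2-5p has its lowest means in IMF-8d (21.2) and BF-4d (30.2) and its widest range in IMF-2d (55.4 to 144).

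By their 8 group means of log2(TPM + 1), the entries most like ssc-miR-27b-3p among the 422 other tested entries were ssc-miR-499-5p (Pearson r = 0.861), ssc-miR-99a-5p (0.854) and ssc-miR-615 (0.833). ssc-miR-499-5p is also one of the skeletal muscle markers. In BF-0d vs. BF-8d, ssc-miR-99a-5p fell by 1.80 on the log2 scale, ssc-miR-615 by 1.23 and ssc-miR-499-5p by 0.73. ssc-miR-615 also fell in IMF-0d vs. IMF-8d (-0.67, adjusted p = 0.00938, limma), where ssc-miR-27b-3p was at 0.05. ssc-miR-99a-5p (-0.21) and ssc-miR-499-5p (-0.10) were not called there. Most like ssc-miR-24-2-5p were ssc-miR-181b (0.890), ssc-miR-7-3p (0.887) and ssc-miR-30c-5p (0.880), of which ssc-miR-181b rose by a log2 fold change of 1.40 in IMF-0d vs. IMF-8d (adjusted p = 0.0027, limma). ssc-miR-181b also rose in BF-0d vs. BF-8d (1.05, adjusted p = 0.000513, limma), where ssc-miR-24-2-5p was at 0.18 and was not called. These entries share their libraries and their depth with the members, and the values describe likeness over 8 points.

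Other miRNAs known in adipogenesis were set beside the members as lists from general knowledge, 9 reported to favour it and 10 to restrain it, of which 8 and 9 were tested. In BF-0d vs. BF-8d, 2 of the favouring list rose and none fell, and 5 of the restraining list rose and 1 fell (ssc-miR-145-5p, by 1.34 on the log2 scale), where 27.9% of tested entries rose and 14.9% fell. Their median log2 fold changes were -0.02 and 1.26, beside 0.15 over all tested entries and -0.47 over the 8 members. In IMF-0d vs. IMF-8d, 3 of the favouring list rose, and of the restraining list 2 rose and 1 fell (ssc-miR-130a, by 0.81 on the log2 scale), where 19.8% of tested entries rose and 10.7% fell. In BF-0d vs. IMF-0d, 1 of the favouring list was higher in IMF and 3 lower, and 1 and 2 of the restraining list, where 13.5% of tested entries were higher and 15.8% lower. On day 4, where 28.8% of tested entries were lower (15.8% under median-of-ratios scaling), 5 entries of each list were lower in IMF and none higher. On day 8, where 25.1% were lower (14.9% under that scaling), 2 of the favouring list were lower, and 5 of the restraining list were lower and 1 higher.

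In the other comparisons the counts are again out of 8 favouring and 9 restraining entries tested. ssc-miR-210, a hypoxia-induced miRNA of the favouring list, was the only one that rose in BF-0d vs. BF-2d (log2 fold change 1.71, adjusted p = 0.0225, limma), where 2.79% of tested entries rose. In BF-2d vs. BF-4d, where 5.81% of tested entries rose, 1 of the favouring and 4 of the restraining list did: ssc-miR-138 (2.35), ssc-miR-210 (1.64), ssc-miR-224 (1.75) and the CDKN1B-repressing pair ssc-miR-221-3p (1.31) and ssc-miR-222 (1.95). ssc-miR-210 (1.36) and ssc-miR-224 (1.46) rose again in BF-4d vs. BF-8d, where 2.33% of tested entries did. In IMF-4d vs. IMF-8d, where 12.3% of tested entries rose, 3 of the favouring and 2 of the restraining list did: ssc-miR-155-5p (1.03), ssc-miR-210 (2.11), ssc-miR-224 (2.41), ssc-miR-30a-5p (0.99) and ssc-miR-30c-5p (0.68). In BF-2d vs. IMF-2d, where 6.51% of tested entries were lower, ssc-miR-138 (-1.30), ssc-miR-30c-5p (-0.85) and ssc-miR-378 (-1.30) were lower in IMF.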

How the data were processed

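The authors aligned single-end small RNA reads to Sscrofa11.1 in Bowtie without mismatches, dropped reads of other annotated small RNA classes, and named miRNAs through miRBase or predicted them in miRDeep2. No molecular identifiers are named. The deposited values, named TPM by the authors, are in RPM: reads per 1000000 reads on listed miRNAs, and 100.0% of values came out as whole reads within 0.1 of a read (largest distance 0.000569).

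The filter kept entries whose mean across the 24 libraries reached 1 TPM, and these were compared in R 4.3.3 by limma 3.58.1 (moderated, trended variances) on log2(TPM + 1), a scale that understates changes of low entries, each pair of groups alone. The interaction used all libraries, and its values for single steps in time were added after the other results were seen. Alternatives were a replicate block, a pseudocount of 0.1, median-of-ratios scaling, no filter, 1 fit of all libraries, edgeR 4.0.16 and DESeq2 1.42.0 on whole reads, and leaving out each library. The fits were also run on simulated counts with known changes. The most abundant entries were left unchanged there, so that run does not bear on changes of such entries. Libraries of a group differed beyond sampling noise (lowest chi-square per degree of freedom 38.8 over 24 pairs). The correlation of deviations of same-numbered libraries exceeded 0.1 in all 3 pairs only for BF-0d vs. IMF-0d (0.188 to 0.509). Over 36 pairs it ranged from -0.329 to 0.509. For BF-0d vs. IMF-0d the blocked value is printed beside the unblocked one if it changes a call. Whether equal numbers mark the same piglet is not known. Named were all members, entries with their seed, the 3 entries most like ssc-miR-27b-3p and ssc-miR-24-2-5p, and listed adipogenesis miRNAs where 5 or fewer were called. The members and lists were chosen with earlier results of these data known. Positions came from the RefSeq annotation. Scripts ran in Python with pandas and Matplotlib.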

Additional observations from a re-analysis of the deposited data

Results flagged for a closer look

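The time courses of 4 of 8 members differed between BF and IMF in limma's moderated F test of whether the effect of day depends on the source, where 31.6% of tested entries passed: ssc-miR-27b-3p (adjusted p = 0.00132), ssc-miR-23b (adjusted p = 0.0327), ssc-miR-24-2-5p (adjusted p = 0.0329) and ssc-miR-23a (adjusted p = 0.0336). ssc-miR-27b-3p was called in each alternative run, and ssc-miR-27a was added under median-of-ratios scaling, edgeR and DESeq2 (adjusted p = 0.0408, 0.0447 and 0.0168). ssc-miR-24-2-5p was not called in edgeR (0.173) or DESeq2 (0.0534), with no filter (0.0811) or without replicate number 2 (0.368) or 3 (0.336). ssc-miR-23a and ssc-miR-23b lost the call with no filter and without each replicate number (adjusted p = 0.0700 to 0.356, limma).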

How the results depend on the processing

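Counts of members called changed as follows, with the share of all tested entries called in brackets. In BF-0d vs. BF-2d the count was 2 in DESeq2 (13%), 0 with the replicate number as a block (0%) and 0 to 2 without 1 library (0% to 9.77%). In BF-2d vs. BF-4d it was 1 in DESeq2 (12.6%) and 0 to 2 without 1 library (0.465% to 18.1%). In BF-0d vs. BF-8d it was 2 to 4 without 1 library (34% to 40.9%) and 4 in edgeR (43.7%) and DESeq2 (41.9%). In BF-0d vs. IMF-0d it was 3 to 5 without 1 library (20% to 24.4%) and 3 in edgeR (26.3%) and DESeq2 (25.6%). In IMF-4d vs. IMF-8d it was 0 with no filter (1.76%). In IMF-0d vs. IMF-8d it was 3 in edgeR (34.2%) and DESeq2 (31.6%) and 1 to 3 without 1 library (20.9% to 33%). In BF-4d vs. IMF-4d it was 2 in median-of-ratios scaling (27.9%), edgeR (27%), DESeq2 (29.5%) and the replicate block (37.4%). It was 3 in 1 fit of all libraries (42.6%), 0 with no filter (3.15%) and 1 to 3 without 1 library (28.6% to 39.8%). In BF-8d vs. IMF-8d it was 0 with no filter (9.01%), median-of-ratios scaling (34.2%), edgeR (35.1%) and DESeq2 (33.3%), and 0 to 4 without 1 library (33.3% to 45.1%). The interaction count was 1 with no filter, where more entries were tested (120 of 1587 called), and 1 to 2 without 1 replicate number (57 to 89 of 430). The replicate block (adjusted p = 0.0544 for ssc-miR-27b-5p in BF-0d vs. BF-2d) ended no other member's call and added ssc-miR-24-3p on days 0 and 4 of BF vs. IMF. Counts over all entries moved too: in BF-0d vs. BF-2d from 18 to 56 in DESeq2 and to 0 with the block and without each BF-0d library, and in BF-8d vs. IMF-8d from 160 to 194 without BF-8d replicate 1. Under median-of-ratios scaling the split of higher and lower calls over all entries went from 58 and 68 to 63 and 38 in BF vs. IMF on day 0, from 25 and 28 to 36 and 24 on day 2, from 32 and 124 to 52 and 68 on day 4 and from 52 and 108 to 83 and 64 on day 8. Within BF it went from 120 and 64 to 97 and 88 (day 0 to 8), from 25 and 1 to 17 and 6 (day 2 to 4) and from 10 and 3 to 10 and 6 (day 4 to 8), and in IMF-4d vs. IMF-8d from 53 and 3 to 37 and 11. The other causes were not tested. Of the ratio tests, the leave-one-out differences (log2) ran from -0.0265 to 0.121 for 23a to 23b and -0.11 to 0.11 for 27a to 27b-3p on day 8 against day 0, and for IMF against BF from -0.122 to 0.0266 for 27a to 27b-3p and -0.0684 to 0.110 for 27b-5p to 27b-3p, so their signs are not set. For 24-1-5p to 24-2-5p on day 8 they ran from -1.71 to -1.10, past the threshold once. The ratio 24-1-5p to 24-3p, IMF against BF, kept its side of the threshold with a pseudocount, with the replicate block (adjusted exact p = 0.00977) and without each library (0.32 to 0.42). Each group had 3 libraries, and ssc-miR-24-2-5p had the lowest mean of the members, with 14 to 167 reads per library.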
